A study of Mus musculus with 18 samples.

Results

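Control group 2 innate lymphoid cells (ILC2) from lung were compared with mature control ILC2 from bone marrow. The comparison was defined by its libraries, 3 labelled Lung-WT and 3 labelled Mature-WT of the 18 in the series, and took in every gene outside chromosomes X and Y. Of the 1916 genes with enough counts to be tested in the series, 1858 met that rule and 58 lay on X or Y. The lung control libraries came from lung and the mature control libraries from bone marrow of mice whose genotype label is Rag2 KO, which lack T and B cells, and no further treatment is recorded. A second pair of groups with the genotype label CD45 KO x Rag2 KO, 3 lung and 3 mature marrow libraries, was used only to look at the same tissue contrast in libraries outside the comparison. The sources used here do not give age, sex, the sorting gate or the way each tissue was taken apart, and the tissue and its preparation cannot be told apart. The labels give 200 sorted cells per sample in one place and 100 cells per tube in another. They do not say whether replicates came from separate animals, and the p-values below measure the spread between these libraries. The samples are bulk RNA, in which fewer cells of a type and less RNA per cell cannot be told apart.

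ILC2 are lymphocytes without rearranged antigen receptors that respond to epithelial alarmins such as IL-33 and IL-25 and secrete type 2 cytokines, among them IL-5 and IL-13. They arise in the bone marrow, where GATA3 and RORα establish the lineage, and lodge in barrier tissues such as the lung, where few of them recirculate. In lymphocytes, signals through surface receptors raise calcium and switch on kinases within minutes, and the transcription factors AP-1, EGR, NR4A and NF-κB are then induced together with the feedback inhibitors that end the response.

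Total counts were 82941, 87007 and 107373 in lung control libraries and 69987, 73968 and 103057 in mature control libraries, with 7894, 7911 and 8359 genes detected in lung and 7669, 7791 and 8634 in mature marrow. Levels are normalised CPM, a gene's count relative to the total of its library after TMM scaling, and changes are log2 fold changes of lung over mature marrow ± SE, tested with edgeR's quasi-likelihood test and adjusted over all 1916 genes. Log2 CPM of the tested genes, with a constant added to each CPM before the log, was correlated between libraries. The correlation was 0.912 to 0.924 between lung libraries and 0.888 to 0.904 between mature libraries. It was 0.62 to 0.661 between the tissues, with the genes and their baseline levels shared by every pair. Over the 6 libraries the typical (median) tested gene averaged 12.2 counts, and having no count allowed up to 33.1 CPM in a lung library and 44.7 CPM in a mature library, for counting error only. The ILC2 markers Gata3, Rora, Il7r, Il1rl1, Id2, Thy1, Il2ra and Klrg1 were counted in all 6 libraries. None of the 9 neutrophil markers examined had a count in lung. They summed to 2697, 167 and 90.2 CPM in mature control replicates 1, 2 and 3, mostly S100a8 and S100a9. T cell receptor markers summed to 77.2, 42.8 and 61.6 CPM in lung, mostly Cd3g, and to 0 in mature marrow, with 4 of the 7 markers found in the table at 0 in lung. Macrophage, mast cell, erythroid, epithelial, endothelial, stromal, B cell and dendritic cell marker lists summed to at most 85.6 CPM in a lung library. In a mature library they reached at most 194 CPM, and all 5 eosinophil markers had 0 counts in both tissues. Blood progenitor markers summed to 419, 471 and 466 CPM in lung and to 149, 180 and 160 CPM in mature marrow, mostly Kit, which is also in the ILC2 list below. Whether these other cells' RNA changed a value below was not tested.

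At an adjusted p under 0.05, 476 of the 1858 genes (25.6%) differed between control lung and mature marrow ILC2. Higher in lung were 280 genes (15.1%) and lower 196 (10.5%). The lung and mature libraries did not overlap for 706 genes (38%), 444 of them among the 476, with 386 higher in lung (20.8%) and 320 lower (17.2%). A difference of over 4-fold was seen for 115 of the 280 higher and 32 of the 196 lower genes. Of the higher genes 15 had 0 counts in mature marrow, and of the lower genes 1 had 0 counts in lung. Such genes were tested on the counts of other libraries and could be called in 1 direction only. The median log2 fold change was 1.65 for the higher and -1.11 for the lower genes, beside -0.02 for all genes tested. The higher genes were led by immediate early transcription factors, secreted cytokines and chemokines and feedback inhibitors. The lower genes were led by the gut-homing receptor Ccr9, by Klf2, Txnip and interferon-inducible GTPases, and by many ribosomal protein genes with small changes. Without mature control replicate 1, the library with the neutrophil marker counts, 432 genes passed, and 387 of them were among the 476. Without a filter on low counts the higher genes made up 69.6% of the calls, beside 58.8% here, and the median of the same genes moved to 0.12.

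**Figure D1:**
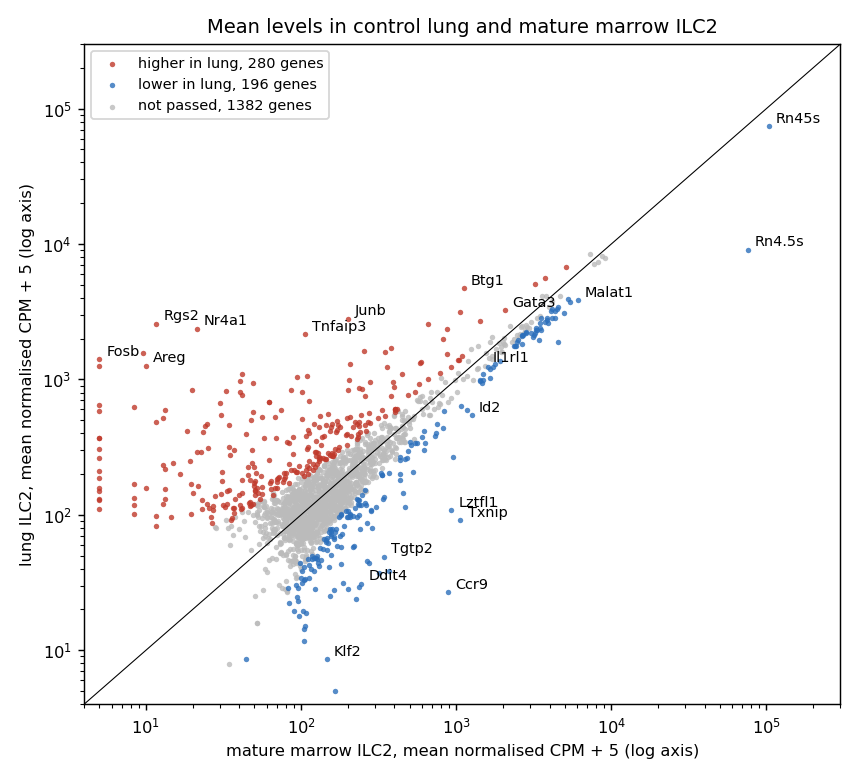
Mean level of each of the 1858 genes in 3 control lung libraries (vertical axis) against 3 control mature marrow libraries (horizontal axis), in normalised CPM plus 5 on log axes, with the line of equality. Red points are the 280 genes higher in lung, blue the 196 lower and grey the 1382 that did not pass, and the column of red points at the left edge holds genes with 0 counts in mature marrow.

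Immediate early genes, which cells transcribe within minutes of a stimulus without new protein, were the list with the highest share of members called among lists with at least 8 tested. Of 28 tested members 24 rose in lung (85.7%, beside 15.1% of all genes tested) and none fell. Of the 28, 6 had 0 counts in mature marrow and could only be called higher. The median log2 fold change was 4.05 (3.58 with genes at 0 counts in a group set to their bound), beside -0.02 over all genes. The summed level of the list was 25527, 22804 and 25192 CPM in the 3 lung libraries, against 3741, 4164 and 4170.4 CPM in mature marrow. Fosb, a subunit of the AP-1 transcription factor (chromosome 7, 19302696 to 19310051, minus strand in mm10, protein coding), had 1587, 1187 and 1433 CPM in lung and 0 counts in every mature library. Against a floor of 3 counts over the mature group it was at least 112-fold higher (adjusted p = 7.24e-30). The related subunits Fos and Fosl2 gave 189 and 248 counts over the lung libraries, against 1 and 3 over the mature libraries. The ratio was 152-fold (95% counting interval 26.9 to 6017) for Fos and 66.3-fold (95% counting interval 22.4 to 324) for Fosl2. Junb, which pairs with Fos proteins, was present in both tissues at 2943, 2802 and 2664 CPM in lung, against 149, 167 and 271 CPM in mature marrow (3.77 ± 0.19, adjusted p = 1.2e-31). Each lung library lay far above the highest mature library for Junb, and the AP-1 members that passed all moved the same way.

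The NR4A orphan nuclear receptors, which are induced by antigen receptor and G protein-coupled signals in lymphocytes, all rose. Nr4a1 (chromosome 15, 101254269 to 101274795, plus strand) had 2678, 1872 and 2524 CPM in lung, against 14.9, 13.9 and 20.1 CPM in mature marrow (7.03 ± 0.31, adjusted p = 2.84e-34). Nr4a3 had 661, 492 and 580.3 CPM and Nr4a2 342, 439 and 308 CPM in lung, both with 0 counts in mature marrow, and they were at least 46-fold and at least 28.9-fold higher. All 3 NR4A genes separated the tissues without overlap, and lung replicate 2 was the lowest lung library for Nr4a1. Among zinc finger factors of the EGR family, Egr3 was at least 14.5-fold higher in lung and Egr1 gave 38 counts in lung, against 1 in mature marrow. Gadd45b, a stress-inducible regulator of MAP kinase signalling and survival, gave 461 counts in lung and 1 in mature marrow, a ratio of 369.6-fold (95% counting interval 66.01 to 14630). Btg1, an antiproliferative cofactor of mRNA deadenylation, was abundant in both tissues, with 4927, 4311 and 4845 CPM in lung, against 998, 1166 and 1173 CPM in mature marrow (2.07 ± 0.14, adjusted p = 2.34e-23). Zfp36l1, which binds AU-rich elements and promotes mRNA decay, likewise had 3075, 2834 and 3491 CPM in lung and 998, 1208 and 972 CPM in mature marrow (1.57 ± 0.14, adjusted p = 6.7e-17). The 4 tested members that did not pass were Klf6, Myc, Mcl1 and Cited2, with log2 fold changes between -0.14 and 0.05. Of 17 heat shock genes, some of which cells raise on protein damage, 8 were tested. Hspa1a, Hspa1b, Hsph1, Dnajb1, Bag3 and Hspb1 were among those with too few counts. Only the co-chaperone Dnaja1 rose (1.07, adjusted p = 6.45e-05) and none fell, with a list median of 0.22. That is 12.5% higher, beside 15.1% of all genes tested.

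Of 16 tested genes of NF-κB, the factor that alarmin and Toll-like receptors activate, 10 rose and none fell (median log2 fold change 1.69). The higher share was 62.5%, beside 15.1% of all genes tested. The list holds subunits, inhibitors, upstream kinases and adaptors, and targets. In the fit of the 6 compared libraries alone, which tested 1216 genes in place of 1858, the list held 6 higher members. The summed level was 8762, 8728 and 8529 CPM in lung, against 2832, 2471 and 2837 CPM in mature marrow. The promoters of the inhibitor Nfkbia and of the chemokine Cxcl2 are printed in the next lines, since both genes are classical NF-κB targets and both rose. Capitals mark matches to the kappa-B consensus, which stands in 3.83% of all 25748 promoters outside X and Y and in 5.65% of those of the tested genes. Each line gives the 250 bases before the RefSeq transcription start in the GRCm38.p6 build (the same coordinates as mm10), read 5′ to 3′ on the gene's strand. Nfkbia lies at chr12:55492648-55492897 on the minus strand and Cxcl2 at chr5:90903649-90903898 on the plus strand.
Nfkbia: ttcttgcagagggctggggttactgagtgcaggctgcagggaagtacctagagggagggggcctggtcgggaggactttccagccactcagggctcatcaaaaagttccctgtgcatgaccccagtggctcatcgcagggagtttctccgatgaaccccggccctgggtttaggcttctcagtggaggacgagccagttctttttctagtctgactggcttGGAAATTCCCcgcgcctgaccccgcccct
Cxcl2: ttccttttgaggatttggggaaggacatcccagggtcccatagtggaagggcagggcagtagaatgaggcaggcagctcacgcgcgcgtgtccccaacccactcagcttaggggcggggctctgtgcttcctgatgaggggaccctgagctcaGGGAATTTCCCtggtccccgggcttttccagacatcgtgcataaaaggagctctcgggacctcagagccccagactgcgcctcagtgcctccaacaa

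The match begins 29 bases before the start in Nfkbia, and a pair of overlapping matches begins 97 and 96 bases before the start in Cxcl2. Nfkbia, the inhibitor IκBα, had 2601, 2492 and 2647 CPM in lung, against 507, 611 and 832 CPM in mature marrow (1.95 ± 0.16, adjusted p = 3.6e-19). Tnfaip3, the ubiquitin-editing enzyme A20 that restrains NF-κB, had 2193, 2182 and 2075 CPM in lung, against 119, 125 and 60.2 CPM in mature marrow (4.46 ± 0.22, adjusted p = 1.08e-31). The 3 lung libraries agreed closely for both genes, with SDs of 79.4 and 65.2 CPM, and none overlapped with mature marrow. Nfkbiz, an atypical nuclear member of the IκB family, averaged 992 ± 23.5 CPM in lung and 199 ± 51.7 CPM in mature marrow (SD, n = 3 each, 2.35 ± 0.21, adjusted p = 1.23e-16). Nfkbid, another nuclear IκB protein, gave 153 counts in lung and 2 in mature marrow, a ratio of 61.3-fold (95% counting interval 16.7 to 511). Nfkbie (2.04) and the RNase Zc3h12a (2.26) rose on few counts, and their calls were lost without mature control replicate 3 (adjusted p = 0.0997) and without mature control replicate 1 (adjusted p = 0.0571). The remaining higher members were Traf1, Tnfaip8 and the kinase genes Map3k8 and Ikbkb. The subunit genes Nfkb1 and Nfkb2 did not pass, with 0.08 and 0.44, and neither did Birc2, Birc3, Cflar and Malt1. Of the 10 higher genes 6 had a promoter entry, and 3 of them, Nfkbia, Nfkbie and Tnfaip3, held the motif, which is too few entries for a share over the list.

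Secreted effector molecules rose in 10 of 13 tested genes (76.9%, beside 15.1% of all genes tested) and fell in none. Of the 13, 2 had 0 counts in mature marrow and could only be called higher. The median log2 fold change was 3.23 (3.07 with genes at 0 counts set to their bound). Csf2, which encodes GM-CSF (chromosome 11, 54247271 to 54249667, minus strand), had 915, 973 and 906 CPM in lung, against 44.7, 27.8 and 60.2 CPM in mature marrow (4.30 ± 0.29, adjusted p = 2.07e-23). Il5, the eosinophil growth factor and a defining ILC2 cytokine (chromosome 11, 53720794 to 53725106, plus strand), had 573, 706 and 475 CPM in lung, against 14.9, 0 and 10.03 CPM in mature marrow, 172 counts against 2. The lung libraries did not overlap with the mature libraries for either cytokine, and the Il5 ratio was 68.96-fold (95% counting interval 18.8 to 574). Il13, which drives mucus production, varied between the lung libraries, with 88.2, 193 and 35.2 CPM in lung and 0 counts in mature marrow, at least 8.38-fold higher (adjusted p = 2.19e-05). Il2, a growth factor for lymphocytes, was at least 16.4-fold higher, from 61 counts in lung and 0 in mature marrow. Also higher were Lif, a cytokine of the interleukin 6 family (4.63), Calca, the gene of calcitonin and the neuropeptide CGRP (3.23), Furin, a proprotein convertase (3.04), and Tgfb1 (1.92). Arg1, the arginine-degrading enzyme that ILC2 express constitutively, was present in both tissues at 584, 642 and 580.3 CPM in lung and 358, 430.3 and 401 CPM in mature marrow (0.60 ± 0.20, adjusted p = 0.0156), and its call was lost in 4 of 14 alternatives (adjusted p 0.0552 to 0.074). The 3 that did not pass were Csf1, Tnfsf11 and Tnfsf14, and 11 more list members, Il4, Il9 and Il6 among them, had too few counts to be tested.

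Areg encodes amphiregulin, an epidermal growth factor receptor ligand that promotes epithelial repair. Its promoter is printed because it holds a complete cyclic AMP response element, TGACGTCA in capitals, which begins 61 bases before the start. With both strands counted, the element is found in 1.66% of all promoters and in 3.28% of those of the tested genes. It stood in 6.42% of promoters of genes higher in lung and in 4.23% of those of lower genes. Among ribosomal protein genes that fell, 5 of 31 promoters held it. Whether the element bears on any change was not tested. The Areg region is chr5:91139349-91139598 on the plus strand of GRCm38.p6, from RefSeq.
Areg: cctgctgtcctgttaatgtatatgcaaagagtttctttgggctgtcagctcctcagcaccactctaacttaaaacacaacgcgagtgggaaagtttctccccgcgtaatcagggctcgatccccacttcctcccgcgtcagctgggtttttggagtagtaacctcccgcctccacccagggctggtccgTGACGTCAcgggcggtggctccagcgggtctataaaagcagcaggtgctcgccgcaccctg

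Areg had 1190.4, 1187 and 1398 CPM in lung, against 14.9, 0 and 0 CPM in mature marrow, 378 counts against 1. The ratio was 303-fold (95% counting interval 54.1 to 12000) with an adjusted p of 5.56e-28, and only mature control replicate 1 held a count. None of the other 8 higher effector genes with a promoter entry held this motif. Of 11 tested genes of the cyclic AMP response, 3 rose (27.3%, beside 15.1% of all genes tested) and none fell (median 0.20). The 3 were Crem, a transcriptional modulator with 73 counts in lung and 3 in mature marrow at a ratio of 19.5-fold with a 95% counting interval of 6.42 to 96.8, the kinase Sik1 (3.16) and the clock gene Per1 (1.48), and Creb1, Gnas and the kinase subunits Prkar1a and Prkacb did not pass.

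Of 16 chemokines in the list 4 had enough counts to be tested, and 3 of the 4 rose and 1 fell. The 3 that rose had 0 counts in mature marrow, so they were tested on the counts of other libraries and could only be called higher. Cxcl2, a neutrophil attractant whose promoter stands above, had 1069, 1498 and 1161 CPM in lung and 0 counts in mature marrow, at least 98.9-fold higher (adjusted p = 3.76e-28). Ccl1, the ligand of Ccr8, had 573, 609.7 and 739 CPM in lung and 0 counts in mature marrow, at least 51-fold higher. Cxcl1, a close relative of Cxcl2, was at least 9.97-fold higher from 36 lung counts. In mature marrow none of the 3 reached a single count. Ccl5, a chemokine of cytotoxic lymphocytes, went the other way with 0, 10.7 and 61.5 CPM in lung, against 343, 180.4 and 170.4 CPM in mature marrow, 8 counts against 53 (adjusted p = 6.53e-07). It made up all counts of the NK cell and ILC1 marker list in mature marrow, where the other 9 markers had no count.

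**Figure D2:**
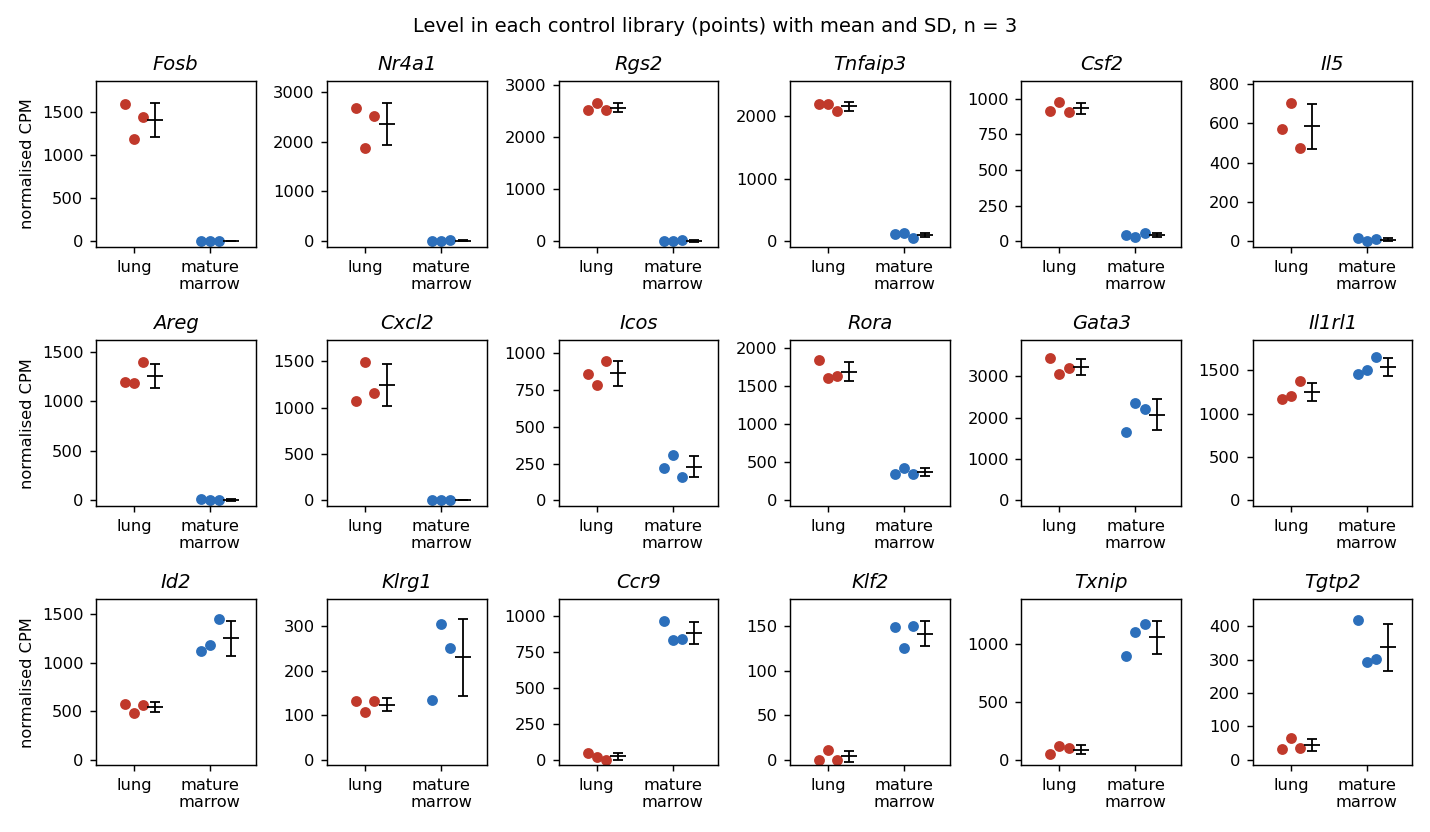
Normalised CPM of 18 genes in each of 3 control lung libraries (red points, left) and 3 control mature marrow libraries (blue points, right), with the mean and SD beside the points and each axis including 0. Fosb, Nr4a1, Rgs2, Csf2, Il5, Areg and Cxcl2 lie near 0 in mature marrow, Ccr9 and Klf2 near 0 in lung, and Il1rl1 did not pass.

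Feedback regulators of receptor signalling rose in 6 of 10 tested genes (60%) and fell in 1 (10%), with a median of 2.81. Over all genes tested, 15.1% rose and 10.5% fell. Rgs2, which speeds GTP hydrolysis by G proteins, had 2513, 2663 and 2515 CPM in lung, against 0, 0 and 20.1 CPM in mature marrow, 763 counts against 2 and a ratio of 306-fold (95% counting interval 84.4 to 2530). Its relative Rgs1 averaged 669 ± 90.6 CPM in lung and 25.02 ± 31.3 CPM in mature marrow (SD, n = 3 each, 4.45 ± 0.39, adjusted p = 2.86e-17). Dusp1, a phosphatase that inactivates MAP kinases, had 783, 717 and 774 CPM in lung, against 14.9, 55.5 and 40.1 CPM in mature marrow (4.28 ± 0.32, adjusted p = 1.35e-20). Both lung and mature libraries were tight for these genes next to the gap between them. The receptor tyrosine kinase inhibitors Spry1 (3.12) and Spry2 (3.54) and the phosphatase Dusp10 (2.51) rose too. Socs1, which blocks JAK kinases downstream of cytokine receptors, fell to 44.1, 21.4 and 52.8 CPM in lung, against 298, 222 and 291 CPM in mature marrow (-2.72 ± 0.38, adjusted p = 7.27e-09), while Socs2 (0.74) and Cish (0.16) did not pass.

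Genes that respond to glucocorticoids moved both ways, 6 of 10 tested members higher (60%) and 2 lower (20%), beside 15.1% and 10.5% of all genes tested. The higher ones were Dusp1, Nfkbia, Per1, the receptor gene Nr3c1 (1.06), the mRNA-decay factor Zfp36l2 (0.81) and the transcription factor Cebpb, with 70 counts in lung and 2 in mature marrow, and 3 of the 6 belong to other lists as well. The lower ones were Txnip and Ddit4. Txnip, a thioredoxin-binding protein that limits glucose uptake, fell to 44.1, 118 and 96.7 CPM in lung, against 894, 1110.4 and 1173 CPM in mature marrow (-3.60 ± 0.25, adjusted p = 2.39e-22). Ddit4, an inhibitor of the growth kinase complex mTORC1, fell to 0, 42.8 and 35.2 CPM in lung, against 253, 222 and 241 CPM in mature marrow (-3.09 ± 0.43, adjusted p = 4.69e-09). For both genes the highest lung library stayed far below the lowest mature library. Fkbp5 (-0.87) and Klf9 (-0.70) did not pass.

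Of 19 tested genes of a list of ILC2 identity and more widely expressed lymphocyte genes, 7 rose in lung (36.8%) and 5 fell (26.3%). Over all genes tested, 15.1% rose and 10.5% fell. The list median was 0.48, and Areg, described above, was among the 7. Gata3, the master transcription factor of the lineage (chromosome 2, 9857078 to 9890034, minus strand), was high in both tissues, with 3428, 3048 and 3201 CPM in lung and 1654, 2359.6 and 2196 CPM in mature marrow (0.63 ± 0.13, adjusted p = 0.000107). Rora, the other lineage factor, differed far more, with 1841, 1604 and 1636 CPM in lung, against 343, 430.3 and 351 CPM in mature marrow (2.18 ± 0.19, adjusted p = 3.48e-17). Id2, which represses E proteins in all innate lymphoid cells, fell to 573, 481 and 563 CPM in lung, against 1118, 1179.8 and 1454 CPM in mature marrow (-1.23 ± 0.16, adjusted p = 8.77e-10). The libraries of the tissues did not overlap for these 3 factors. Il7r, the interleukin 7 receptor, had 882, 1252 and 1222 CPM in lung, against 641, 736 and 982 CPM in mature marrow (0.48 ± 0.17, adjusted p = 0.0287). The groups overlapped, and its call was lost in 5 of 14 alternatives (adjusted p 0.102 to 0.168). Among surface markers, the costimulatory receptor Icos had 859.7, 781 and 949.6 CPM in lung, against 224, 305 and 160.4 CPM in mature marrow (1.95 ± 0.21, adjusted p = 1.04e-12). Kit, the stem cell factor receptor, had 342, 417 and 422 CPM in lung, against 104, 97.2 and 120.3 CPM in mature marrow (1.85 ± 0.29, adjusted p = 1.59e-07), and Thy1 averaged 462 ± 68.6 CPM in lung and 153 ± 73.6 CPM in mature marrow (1.58).

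Il1rl1, the IL-33 receptor subunit, had 1168, 1209 and 1372 CPM in lung, against 1460.5, 1499 and 1654 CPM in mature marrow, and did not pass (-0.30 ± 0.15, adjusted p = 0.136). Il2ra, the α chain of the interleukin 2 receptor, had 518, 503 and 589 CPM in lung, against 686, 722 and 622 CPM in mature marrow, and did not pass either (-0.32 ± 0.18, adjusted p = 0.209). Every lung library was below every mature library for Il1rl1 and Il2ra, by less than the test required. Il17rb, the IL-25 receptor subunit, fell to 66.1, 107 and 61.5 CPM in lung, against 59.6, 236 and 261 CPM in mature marrow (-1.32 ± 0.39, adjusted p = 0.00585), with mature control replicate 1 below all 3 lung libraries, and without mature control replicate 3 the call was lost (adjusted p = 0.155). Klrg1, a lectin-like inhibitory receptor of mature ILC2, fell to 132, 107 and 132 CPM in lung, against 134, 305 and 251 CPM in mature marrow (-0.91 ± 0.34, adjusted p = 0.0376). That call was lost in 7 of 14 alternatives (adjusted p 0.0651 to 0.246). Ly6a, which encodes Sca-1, fell to 254, 225 and 308 CPM in lung, against 1192, 833 and 832 CPM in mature marrow (-1.82 ± 0.20, adjusted p = 7.79e-13), and the lymphotoxin gene Ltb fell by 1.15 on the log2 scale. Ptprc, the gene of CD45, had 628, 546 and 563 CPM in lung and 253, 458 and 541 CPM in mature marrow and did not pass (0.42 ± 0.22, adjusted p = 0.157).

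Of 40 genes of homing, retention and adhesion outside X and Y, 17 had enough counts to be tested. Of these 7 rose (41.2%) and 3 fell (17.6%), beside 15.1% and 10.5% of all genes tested. Ccr9, the receptor for the thymus and gut chemokine CCL25 (chromosome 9, 123678439 to 123784330, plus strand), had the largest fall among genes with at least 10 counts on average over the 6 libraries, with 44.1, 21.4 and 0 CPM in lung, against 969, 833 and 842 CPM in mature marrow (-5.35 ± 0.39, adjusted p = 1.95e-21). Klf2, the transcription factor that sustains S1pr1 and with it exit from tissue, gave 1 count in lung and 34 in mature marrow, a ratio of mature marrow over lung of 42.4-fold (95% counting interval 7.11 to 1724). S1pr1 itself had 0 counts in both tissues, which allows up to 10.1 CPM over the lung group and 12.6 CPM over the mature group. Lztfl1, a ciliary trafficking gene that lies within the span of Ccr9 on the opposite strand (chromosome 9, 123694416 to 123717697, minus strand), fell to 132, 53.5 and 123 CPM in lung, against 998, 763 and 1002 CPM in mature marrow (-3.14 ± 0.24, adjusted p = 1.29e-19). The strand setting of the counting is not stated, so reads of Lztfl1 and Ccr9 cannot be told apart with certainty. Itga4, the integrin α4 chain, fell to 121, 149.8 and 149 CPM in lung, against 328, 430.3 and 591 CPM in mature marrow (-1.71 ± 0.26, adjusted p = 4.62e-08). In the other direction, Cd69, which retains lymphocytes by pulling S1pr1 off the surface, had 265, 203 and 422 CPM in lung, against 14.9, 41.6 and 40.1 CPM in mature marrow (3.13 ± 0.44, adjusted p = 5.22e-09). Cd44, a receptor for hyaluronan, had 959, 1198 and 976 CPM in lung, against 119, 69.4 and 80.2 CPM in mature marrow (3.55 ± 0.25, adjusted p = 8.11e-22). The tissues did not overlap for any of these counted genes. The chemokine receptors Ccr2 (2.18 ± 0.19, adjusted p = 1.14e-16), Cxcr6 (1.18) and Cxcr4 (2.20) rose as well, with Ccr2 at 1593 ± 131 CPM in lung and 345 ± 54.8 CPM in mature marrow. Gpr171 and the integrin chain Itgb7 were the remaining higher members, and Itgal, Itgb2, Itgb3, Selplg, Gpr183, Cd53 and Cd81 did not pass.

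Of 30 inhibitory and costimulatory receptors 10 were tested, and Ctla4, Tigit, Lag3 and Havcr2 were among those with too few counts. Of the 10, 2 were higher (20%) and 4 lower (40%), beside 15.1% and 10.5% of all genes tested. Pdcd1, the inhibitory receptor PD-1, had 298, 203 and 273 CPM in lung and 0 counts in mature marrow, at least 20.5-fold higher (adjusted p = 1.89e-11), and Icos was the other higher gene. The 4 lower genes, Cd27, Cd48, Klrg1 and Lilrb4a, had few counts and between 0 and 2 of them passed in 8 of 14 alternatives. Among receptors and enzymes of neuropeptide and lipid mediator pathways, 4 of 9 tested genes rose (44.4%) and 1 fell (11.1%). Ramp3, which with Calcrl forms an adrenomedullin receptor, had 441, 310.2 and 343 CPM in lung and 0 counts in mature marrow, at least 29-fold higher. Ramp1, which with Calcrl forms the CGRP receptor, averaged 344 ± 68.02 CPM in lung and 120.0 ± 54.9 CPM in mature marrow (1.57 ± 0.29, adjusted p = 1e-05), while Calcrl itself did not pass (1.13, adjusted p = 0.0893). Ptgs2, the inducible cyclooxygenase, was at least 9.79-fold higher from 35 lung counts. Alox5, the 5-lipoxygenase of leukotriene synthesis, fell to 66.1, 53.5 and 106 CPM in lung, against 313, 236 and 301 CPM in mature marrow (-1.87 ± 0.32, adjusted p = 1.8e-06). The prostacyclin receptor Ptgir rose by 0.85 with overlapping libraries, and its call was lost in 5 of 14 alternatives (adjusted p 0.0535 to 0.112). Nrp1, a semaphorin co-receptor outside the lists, was at least 24-fold higher, from 90 counts in lung and 0 in mature marrow.

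Cytoskeletal and calcium-binding genes rose in 15 of 29 tested members (51.7%, beside 15.1% of all genes tested) and fell in none. Of the 29 log2 fold changes 28 were positive (median 0.65). Their summed level was 21834, 22762 and 21446 CPM in lung, against 14053, 11562 and 12281 CPM in mature marrow. The intermediate filament gene Vim had 969.9, 919.9 and 580.3 CPM in lung, against 59.6, 83.3 and 100.2 CPM in mature marrow (3.26 ± 0.27, adjusted p = 2.15e-18). S100a4, a calcium-binding protein of motile cells, had 1786, 1444 and 1609 CPM in lung, against 209, 291 and 251 CPM in mature marrow (2.68 ± 0.19, adjusted p = 3.7e-22). Ahnak, a giant scaffold protein under the membrane, had 1146, 1155 and 967 CPM in lung, against 0, 69.4 and 40.1 CPM in mature marrow (4.80 ± 0.31, adjusted p = 3.75e-24). Each of these was low in every mature library and high in every lung library. The galectin Lgals1 gave 142 counts in lung and 2 in mature marrow, a ratio of 56.9-fold (95% counting interval 15.5 to 475), and S100a6 averaged 500.5 ± 131 CPM in lung and 42.4 ± 41.7 CPM in mature marrow (3.70). The actin genes moved less, Actg1 by 1.26 and Actb by 0.40. Cfl1, Pfn1, Coro1a and the tested Arp complex subunits did not pass.

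Interferon-response genes went the other way, with 10 of 16 tested members lower in lung and 1 higher (median -1.31). The lower share was 62.5%, beside 10.5% of all genes tested. Without a filter on low counts 6 were lower. The summed level was 1378, 1647 and 1530 CPM in lung, against 3294, 2998 and 2576 CPM in mature marrow. Immunity-related GTPases, which interferons induce and which attack pathogen vacuoles, led the list. The promoters of Igtp (chosen after its values were seen) and Irgm1 are shown because both hold an interferon-stimulated response element of the form GAAANNGAAA, in capitals, which stands on either strand of 3.03% of all promoters. Igtp lies at chr11:58199306-58199555 on the plus strand and Irgm1 at chr11:48871421-48871670 on the minus strand of GRCm38.p6, from RefSeq.
Igtp: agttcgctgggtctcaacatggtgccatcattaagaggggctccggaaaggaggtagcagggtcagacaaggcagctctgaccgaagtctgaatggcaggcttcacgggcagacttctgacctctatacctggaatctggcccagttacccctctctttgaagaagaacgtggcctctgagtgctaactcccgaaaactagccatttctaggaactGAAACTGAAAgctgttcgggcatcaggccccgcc
Irgm1: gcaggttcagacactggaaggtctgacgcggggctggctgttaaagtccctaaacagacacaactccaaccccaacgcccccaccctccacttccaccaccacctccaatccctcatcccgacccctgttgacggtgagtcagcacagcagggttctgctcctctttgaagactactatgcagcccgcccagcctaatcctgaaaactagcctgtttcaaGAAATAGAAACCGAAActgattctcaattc

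The match begins 34 bases before the start in Igtp, and a pair of overlapping matches begins 30 and 24 bases before it in Irgm1. Of the 7 lower members with a promoter entry 5 held the motif, Gbp7, Igtp, Irgm1, Tgtp1 and Tgtp2, a count over too few entries to give a share of the list. Irgm1 fell to 22.04, 10.7 and 35.2 CPM in lung, against 134, 180.4 and 160.4 CPM in mature marrow (-2.69 ± 0.52, adjusted p = 1.69e-05). Igtp fell to 22.04, 10.7 and 8.79 CPM in lung, against 164, 83.3 and 60.2 CPM in mature marrow (-2.73 ± 0.64, adjusted p = 0.000488). Tgtp2 fell to 33.1, 64.2 and 35.2 CPM in lung, against 417, 291 and 301 CPM in mature marrow (-2.89 ± 0.36, adjusted p = 1.99e-10). Its near-identical neighbour Tgtp1 changed by -3.15, and the counting could have split reads between them. Ifi47, a further GTPase, averaged 23.2 ± 10.9 CPM in lung and 195 ± 15.8 CPM in mature marrow (-2.99 ± 0.47, adjusted p = 1.47e-07). The transcription factor Irf1 fell (-1.91, adjusted p = 6.27e-05), and Irf2, Stat3, Gbp2, Slfn2 and Slfn5 did not pass. Ifngr1, a chain of the interferon-γ receptor, was the higher member, with 364, 353 and 404 CPM in lung, against 224, 111 and 60.2 CPM in mature marrow (1.61 ± 0.33, adjusted p = 6.19e-05), a call lost with the Wald test of DESeq2 (adjusted p = 0.0573).

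Antigen presentation genes fell in 4 of 12 tested members (33.3%, beside 10.5% of all genes tested) and rose in none. All 12 log2 fold changes were negative (median -0.72). Cd74, the invariant chain of MHC class II, gave 3 counts in lung and 25 in mature marrow, a ratio of mature marrow over lung of 10.4-fold (95% counting interval 3.17 to 53.8). Tap1, a peptide transporter, fell to 55.1, 42.8 and 17.6 CPM in lung, against 194, 180.4 and 150.4 CPM in mature marrow (-2.18 ± 0.45, adjusted p = 5.53e-05), and the immunoproteasome subunit Psmb9 fell by 2.53 on the log2 scale with 4 counts in lung and 20 in mature marrow. B2m, the light chain of MHC class I, was abundant in both, at 3648, 4353 and 3772 CPM in lung and 5603, 4691 and 5494 CPM in mature marrow (-0.42 ± 0.12, adjusted p = 0.00538), and its call was lost in 2 of 14 alternatives (adjusted p 0.0561 to 0.353). H2-K1, H2-D1, Tapbp, Nlrc5 and the other tested members did not pass.

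Of 76 tested cytosolic ribosomal protein genes 40 fell in lung (52.6%, beside 10.5% of all genes tested) and none rose, by small amounts (median -0.34). Their summed level was 171370, 192190 and 181780 CPM in lung, against 241820, 221660 and 217560 CPM in mature marrow. Mature control replicate 1, the library with most neutrophil marker counts, was the highest, and without it 24 fell. Without a filter on low counts 5 fell (list median -0.20), and the number called depended on the filter. Rpl17 fell to 3185, 3069.8 and 3007 CPM in lung, against 5186, 4594 and 5123 CPM in mature marrow (-0.69 ± 0.12, adjusted p = 3.72e-06), and Rpl12, Rps18, Rps7, Rps10 and Rps24 had log2 fold changes between -0.61 and -0.52. Ribosomal protein genes have many near-identical copies, among them Rps27rt (-0.80), so single values are uncertain. Rn4.5s, an abundant small RNA encoded in many copies, fell to 9391, 8065 and 9822 CPM in lung, against 80981, 73702 and 71820 CPM in mature marrow (-3.05 ± 0.16, adjusted p = 1.48e-29). Relative to the TMM-scaled library total, its count averaged 0.909% in lung and 7.55% in mature marrow. Rn45s, the ribosomal RNA precursor, had 69041, 67632 and 85889 CPM in lung and 91025, 108640 and 110330 CPM in mature marrow (-0.48 ± 0.16, adjusted p = 0.0181), a call lost in 6 of 13 alternatives (adjusted p 0.0665 to 0.226). With both removed before scaling, 33 ribosomal protein genes fell. Malat1 (-0.67 ± 0.15, adjusted p = 0.000171) and the small nucleolar RNA Snora81 (-1.24 ± 0.14, adjusted p = 1.23e-12) fell as well. The call of Malat1 was lost with the Wald test of DESeq2 (adjusted p = 0.0519).

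The remaining lists are given by their counts, beside 15.1% higher and 10.5% lower over all genes tested. Oxidative phosphorylation subunits rose in 4 of 45 tested genes, Atp5c1, Atp5j2, Atp5k and Ndufa3 (log2 fold changes 0.82 to 1.03), each with a call lost in 3 to 6 of 14 alternatives, and fell in none, and glycolysis and hypoxia genes rose in 1 of 9, Ero1l (1.27), and fell in none. In the secretory and unfolded protein response list 1 of 14 fell, Herpud1, and none rose, and the call of Herpud1 was lost in 3 of 13 alternatives (adjusted p 0.0632 to 0.144). Proliferation genes had 1 higher, H2afz, and 1 lower, Cdk6, among 12. The call of H2afz was lost in 5 of 14 alternatives (adjusted p 0.05 to 0.118) and that of Cdk6 in 5 of 13 alternatives (adjusted p 0.0669 to 0.162). Progenitor and stem-like genes had 1 higher and 2 lower among 11: Lmo4 (0.45 ± 0.16, adjusted p = 0.0264) rose, Ltb fell, and the chromatin organiser Satb1 fell to 66.1, 85.6 and 70.3 CPM in lung, against 268, 264 and 170.4 CPM in mature marrow (-1.60 ± 0.35, adjusted p = 0.000146). The call of Lmo4 was lost in 6 of 14 alternatives (adjusted p 0.0534 to 0.213). Tcf7, an early lineage factor, had too few counts to be tested, 10 over the lung libraries and 3 over the mature libraries. None of the 4 tested survival genes, Bcl2, Bcl2l11, Mcl1 and Birc3, passed in edgeR or in the Wald test of DESeq2, and 1, Birc3, had an unadjusted p under 0.05 (-0.74). Over all lists with no call in a direction, at most 1 member had an unadjusted p under 0.05 in that direction in edgeR, and the Wald test of DESeq2 called none. In lipid metabolism, Dgat1, which makes triglycerides, had 441, 321 and 439.6 CPM in lung, against 44.7, 0 and 10.03 CPM in mature marrow (4.48 ± 0.48, adjusted p = 4.64e-13), and the desaturase Scd2 gave 2 counts in lung and 24 in mature marrow, the only other call among 3 tested genes. Of 8 tissue matrix and protease genes Sdc4 (2.07) and Serpinb1a (2.48) rose and Adam8 and Serpina3g fell, and the calls of Adam8 and Serpina3g were lost in 6 of 13 and 7 of 13 alternatives. Serglycin, the granule proteoglycan encoded by Srgn, rose (1.27 ± 0.18, adjusted p = 3.97e-09), and of the 2 tested genes of its list Klrg1 fell. Outside the lists, the sialyltransferase gene St3gal6 fell to 44.1, 21.4 and 96.7 CPM in lung, against 119, 249.8 and 271 CPM in mature marrow (-1.93 ± 0.38, adjusted p = 2.89e-05). Arl5a, a small GTPase of the trans-Golgi (-2.65), and Luc7l3, a splicing factor (-1.71), were also among the genes that fell most. Pabpc1, the poly(A)-binding protein, had one of the largest differences in level, with 5599, 4792 and 4809.7 CPM in lung, against 2593, 3401 and 3619 CPM in mature marrow (0.65 ± 0.13, adjusted p = 2.59e-05).

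**Figure D3:**
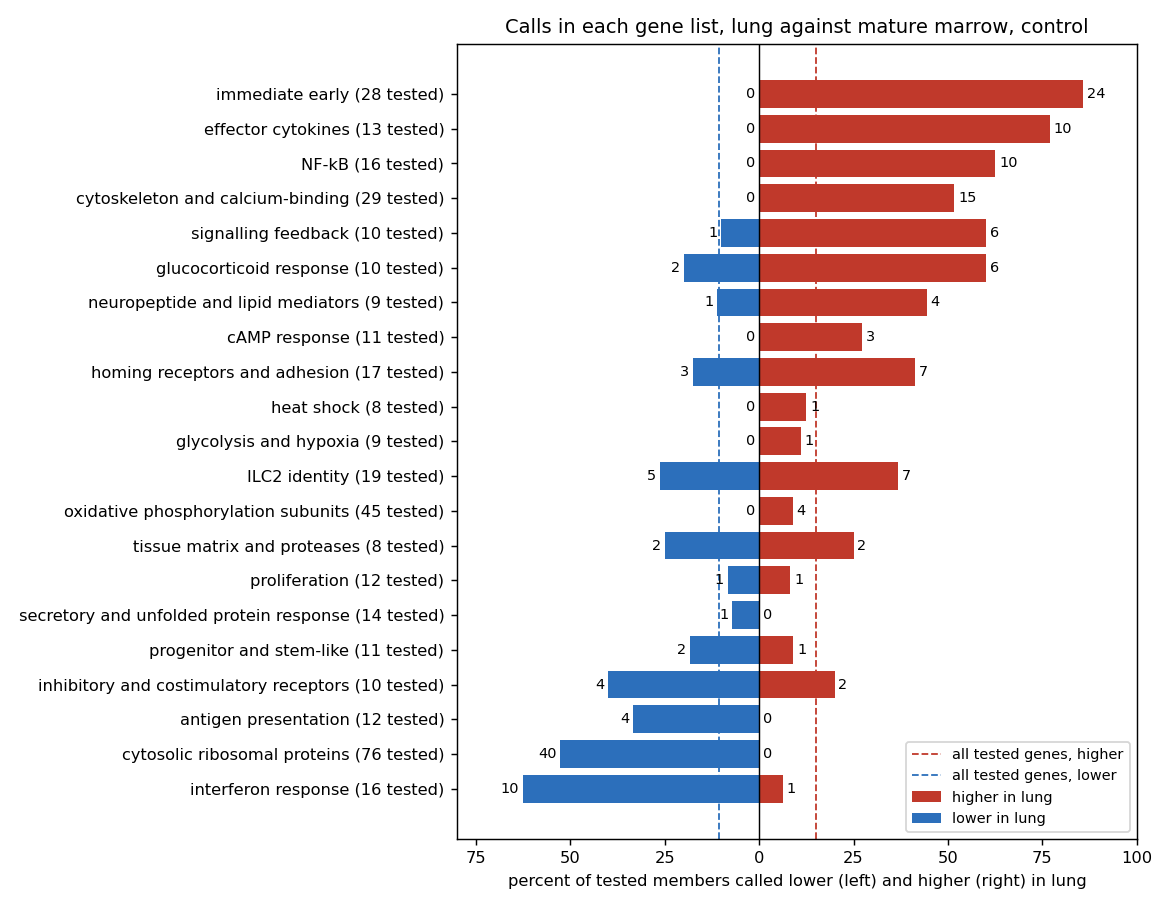
Percent of tested members of each gene list with at least 8 tested members that were lower (blue, to the left) and higher (red, to the right) in control lung than in control mature marrow, with the number of genes at each bar. Dashed lines give the same percentages over all 1858 genes, 15.1% higher and 10.5% lower, and immediate early genes and interferon-response genes lie at the opposite ends.

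The same tissue contrast was read in mice labelled CD45 KO, which lack the receptor tyrosine phosphatase encoded by Ptprc on the same Rag2 KO background, from 6 libraries that the control comparison did not use, although the fit shared 1 estimate of the spread. Ptprc itself had 153, 112 and 229 CPM in lung CD45 KO libraries, against 628, 546 and 563 CPM in control lung, and 238, 101 and 87.98 CPM in mature CD45 KO libraries, against 253, 458 and 541 CPM in control mature marrow. Mature CD45 KO replicate 1 was the highest of the CD45 KO libraries and close to the lowest control mature library. Counts remained in every CD45 KO library, and where they lie relative to the deleted part is not given in the labels. In mature CD45 KO replicate 1 Rn4.5s was 43437 CPM and Ccr9 191 CPM, against 90719 and 82616 CPM of Rn4.5s and 665 and 704 CPM of Ccr9 in the others of its group. Between lung and mature marrow CD45 KO ILC2, 456 genes (24.5%) passed, 277 higher (14.9%) and 179 lower (9.63%), and 449 passed without that library. Of the 280 genes higher in control lung, 216 were also called higher in CD45 KO lung, 77.1% of the control list and 78% of the CD45 KO list. Of the 196 genes lower in control lung, 87 were also called lower in CD45 KO lung, 44.4% of the control list and 48.6% of the CD45 KO list. The sign was shared by 269 of the 280 and by 184 of the 196, beside 73.7% of all genes tested, and no gene was called in opposite directions.

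**Figure D4:**
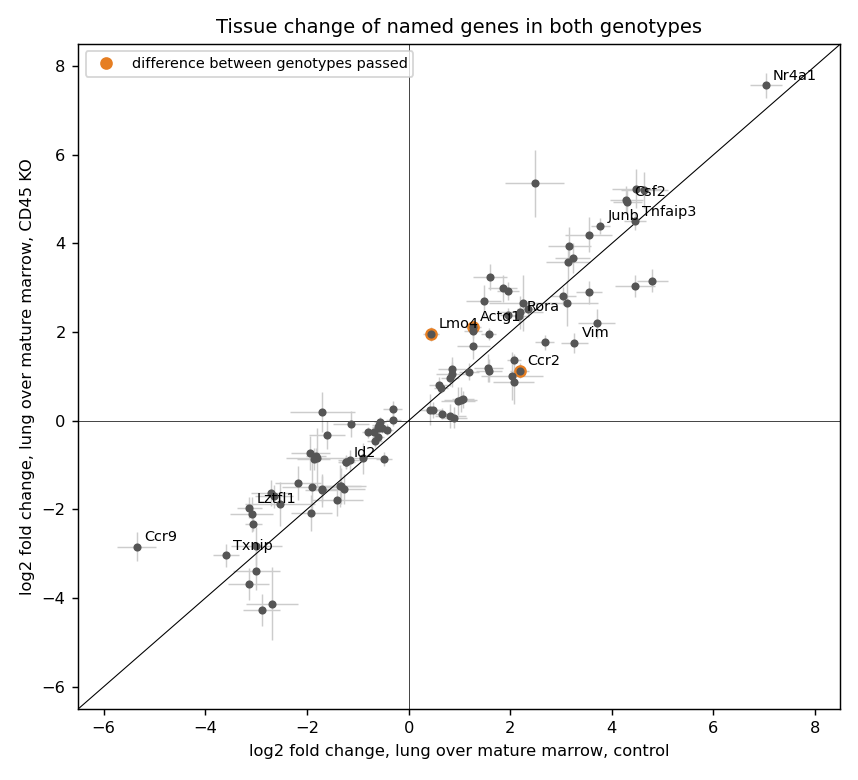
Log2 fold change of lung over mature marrow in CD45 KO ILC2 (vertical axis) against the same in control ILC2 (horizontal axis) for 100 of the 125 named genes, with bars of 1 SE and the line of equality, leaving out 25 with 3 or fewer counts in a control group or none in a CD45 KO group. Orange points are Ccr2, Actg1 and Lmo4, whose change differed between the genotypes.

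By list, immediate early genes had 24 of 28 members higher in CD45 KO lung as in control lung, effector cytokines 10 of 13 and NF-κB genes 10 of 16 in both genotypes. Nr4a1 had 2823, 3508 and 3400.2 CPM in lung CD45 KO, against 11.9, 0 and 35.2 CPM in mature CD45 KO (7.57 ± 0.28, adjusted p = 3.18e-40). Csf2 had 1126, 1247 and 1241 CPM in lung CD45 KO, against 35.7, 33.7 and 43.99 CPM in mature CD45 KO (4.95 ± 0.26, adjusted p = 1.86e-29). Both separated the tissues without overlap, as in controls. Interferon-response genes fell in 13 of 16 members in CD45 KO lung (median -2.10), against 10 of 16 in control lung (median -1.31). Ribosomal protein genes fell in 2 of 76 in CD45 KO lung (median -0.07), against 40 of 76 in control lung (median -0.34). Their sums were 210120, 214080 and 211390 CPM in lung CD45 KO, against 200650, 224440 and 233830 CPM in mature CD45 KO replicates 1, 2 and 3. Only mature CD45 KO replicate 1, which stood apart from its group, lay below the lung libraries. In control, 24 fell without mature control replicate 1. How far mature CD45 KO replicate 1 set the CD45 KO count was not tested. For Ccr9 the change was -2.84 in CD45 KO ILC2, beside -5.35 in controls, and the difference did not pass (adjusted p = 0.0754). A direct test of the difference between the genotypes passed for 6 of 1858 genes (0.323%), none of them a ribosomal protein or interferon-response gene. The immature control group of the series, which shares the lung libraries in any comparison with lung, had mean levels of 0 CPM of Fosb, 3.69 CPM of Il5, 496 CPM of Rora and 900.3 CPM of Ccr9, each nearer to mature marrow than to lung.

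**Figure D5:**
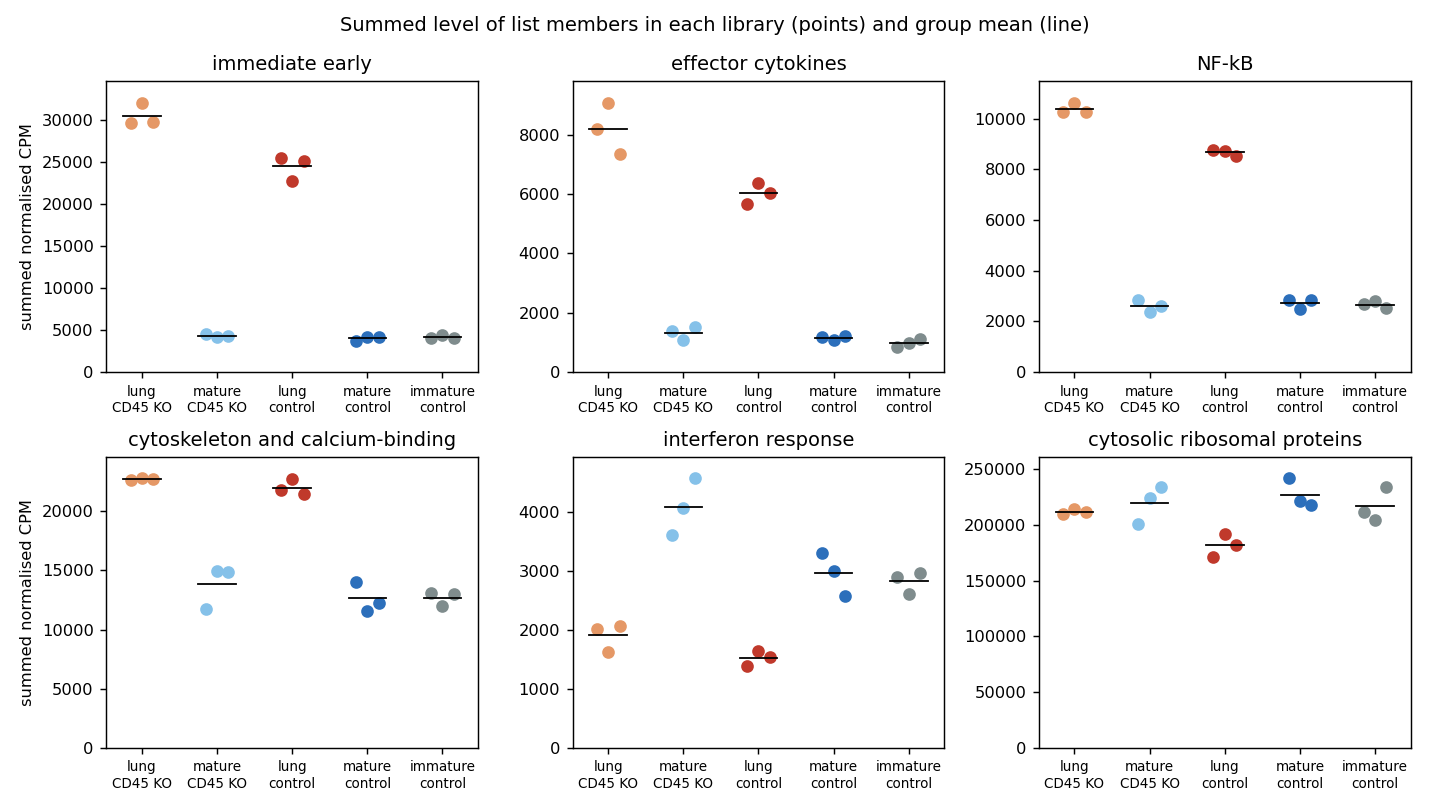
Summed normalised CPM of the members of 6 gene lists outside X and Y in each library, with 3 points per group and a line at the group mean, for CD45 KO lung and mature marrow and for control lung, mature marrow and immature marrow, on axes that start at 0. Immediate early, effector cytokine, NF-κB and cytoskeletal sums were higher in every lung library than in any marrow library, and interferon-response sums were lower in every lung library. Ribosomal sums overlapped between the CD45 KO tissues, where only mature CD45 KO replicate 1 lay below the lung libraries.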

How the data were processed

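Bulk RNA of sorted ILC2 was sequenced as 18 libraries in 6 groups of 3, from a single deposited table of 24781 entries, 11836 of them without a count. Per the labels' protocols, RNA was primed with a barcoded oligo-dT carrying a molecular identifier, made into cDNA by template switching and mixed with ERCC spike-ins, which have no entries among those used here. Per the submitters' processing notes, reads were aligned with STAR to mm10. Not given in the sources used here are versions, the counting step, its annotation, strand setting and the collapse of identifiers. The deposited counts are whole numbers that the authors did not normalise, as far as the values show. Intervals and limits from counts cover counting error only, since the collapse of PCR copies is not stated. Some 3' tags of overlapping or near-identical genes cannot be told apart, among them Tgtp1 and Tgtp2, ribosomal protein genes, Rn45s and Rn4.5s.

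The 6 group means were fitted over all 18 libraries with edgeR 4.0.16 in R 4.3.3, with filterByExpr at a minimum count of 10, TMM scaling, and its quasi-likelihood test. P-values were adjusted by the Benjamini-Hochberg method over 1916 genes, with a threshold of 0.05. Genes on X and Y (58 tested, 15 called) were then left out of every count given. The SE was taken as the absolute log2 fold change over the root of its F value. Ratios of genes with 1 to 3 counts in a group carry exact 95% intervals conditional on the total count. Gene positions come from GENCODE M21, which placed 1909 of the 1916 genes (99.6%), and promoters from RefSeq on GRCm38.p6. Of genes with a promoter, 15.7% have several starts, of which 1 was used. The kappa-B and serum response consensus and the motifs spelled out in the text were searched on both strands.

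The 125 named genes are a panel of 25 ILC2 genes (22 tested), the 15 genes with the largest fold in each direction among those called without overlap and with at least 10 counts on average, the 8 with the largest level difference in each direction, and up to 6 called members of each list. Other list members are named to complete a count, some after their values were seen. The members and lists were chosen with earlier results of these data known. Replicate pairs differed beyond sampling noise in chi-square tests of their counts (p at most 0.000322), so none was treated as a copy of another. Each library counts once, although these tests cannot tell separate animals from portions of 1 sample. The statistics were tested on simulated data. Alternatives were DESeq2 size factors and the Wald test of DESeq2 1.42.0, other filters, a fit of the compared libraries alone, a replicate block, removal of X and Y genes or of Rn45s and Rn4.5s before scaling, and each library left out. Values of a few genes are not reported here.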

Additional observations from a re-analysis of the deposited data

Results flagged for a closer look

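For 6 genes the change from mature marrow to lung differed between CD45 KO and control ILC2 at an adjusted p under 0.05 in the test of the difference itself (edgeR, 0.323% of 1858 genes). Lmo4, a LIM-domain transcriptional cofactor, averaged 2647 ± 133 CPM in lung CD45 KO and 704 ± 281 CPM in mature CD45 KO, and 1476 ± 297 CPM in control lung and 1086 ± 38.9 CPM in control mature marrow (SD, n = 3 each). Its tissue change was 1.96 in CD45 KO and 0.45 in control, a difference of 1.51 ± 0.22, adjusted p = 3.82e-06, and this call held in all 20 alternatives. Nfkb1, the p50 subunit gene of NF-κB, averaged 766 ± 3.09 CPM in lung CD45 KO and 350.1 ± 26.3 CPM in mature CD45 KO, and 488 ± 71.02 CPM in control lung and 459 ± 13.7 CPM in control mature marrow, with a difference of 1.05 ± 0.26, adjusted p = 0.0461. Actg1, γ-actin, averaged 3659.8 ± 230.1 CPM in lung CD45 KO and 826 ± 213 CPM in mature CD45 KO, and 1974 ± 156 CPM in control lung and 819 ± 169.6 CPM in control mature marrow, with a difference of 0.86 ± 0.21, adjusted p = 0.0461.

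For the other 3 genes the tissue change was smaller or turned round in CD45 KO. Ccr2 averaged 1559 ± 193 CPM in lung CD45 KO and 742 ± 288 CPM in mature CD45 KO, and 1593 ± 131 CPM in control lung and 345 ± 54.8 CPM in control mature marrow, with a difference of -1.06 ± 0.27, adjusted p = 0.0461. Mature CD45 KO replicate 1, which stood apart from its group, had 1072 CPM, against 539 and 616 CPM in replicates 2 and 3. Rexo2, a mitochondrial exonuclease, averaged 90.7 ± 35.7 CPM in lung CD45 KO and 143 ± 24.7 CPM in mature CD45 KO, and 148 ± 3.66 CPM in control lung and 45.8 ± 16.4 CPM in control mature marrow, with a difference of -2.32 ± 0.57, adjusted p = 0.0461. Pisd-ps3, a transcribed pseudogene whose reads may be shared with its parent gene, averaged 124 ± 15.8 CPM in lung CD45 KO and 139.6 ± 47.1 CPM in mature CD45 KO, and 343 ± 66.2 CPM in control lung and 76.1 ± 28.5 CPM in control mature marrow, with a difference of -2.25 ± 0.47, adjusted p = 0.00815. Every lung library lay above every mature library in control for both genes, and neither passed in CD45 KO (-0.67 and -0.17). The call of the difference was lost in 15 of 20 alternatives for Ccr2, 13 of 20 for Nfkb1, 11 of 20 for Actg1, 11 of 19 for Rexo2 and 2 of 19 for Pisd-ps3, and without mature control replicate 1 only that of Lmo4 was left. Nfkb1, Rexo2 and Pisd-ps3 were chosen after their values were seen.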

How the results depend on the processing

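Against 476 genes called between control lung and mature marrow, 338 passed with the Wald test of DESeq2, 396 in the fit of the 6 compared libraries alone, 467 without a filter on low counts and 381 to 438 with 1 library left out. Without the filter 12507 genes were tested and the split moved to 69.6% higher, beside 58.8%. For CD45 KO the 456 calls ranged from 382 to 449 with 1 library left out and were 351 with the Wald test. The 6 genes whose tissue change differed between genotypes became 10 with the Wald test, 2 in the fit of the 12 compared libraries alone and 1 to 13 with 1 library left out; the cause was not tested. Same-numbered lung and mature libraries did not deviate together (r of 0.0115, -0.00657 and 0.022), and adding the replicate block gave 474 calls for control, 450 for CD45 KO and 9 for the difference. Of 122 named genes that passed, 96 kept the call in every alternative that tested them and 100 whenever 1 library was left out, and none changed sign. Among the gene lists, 4 lower inhibitory and costimulatory receptors became 0 without the filter or with the Wald test, and 40 lower ribosomal protein genes became 5 without the filter. At a median of 12.2 counts per library, small changes in genes of low level could be missed.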

Other observations

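Genes in this section were picked from all 1858 tested after their values were seen. The GIMAP family of lymphocyte GTPases lies together on chromosome 6 and supports lymphocyte survival. Of its 6 tested members 4 fell in lung and none rose, beside 10.5% lower and 15.1% higher over all genes tested. Gimap3 had 265, 267 and 361 CPM in lung, against 551, 611 and 692 CPM in mature marrow (-1.05 ± 0.21, adjusted p = 4.2e-05). Gimap6 had 88.2, 171 and 70.3 CPM in lung, against 313, 291 and 291 CPM in mature marrow (-1.46 ± 0.30, adjusted p = 5.79e-05). Gimap5 (-1.69 ± 0.47, adjusted p = 0.00368) and Gimap1 (-0.93 ± 0.33, adjusted p = 0.0266) fell too, while Gimap8 (-0.37 ± 0.32, adjusted p = 0.432) did not pass, nor did Gimap4, with 1 count in lung and 8 in mature marrow (adjusted p = 0.0554). In CD45 KO ILC2 all 6 passed, with log2 fold changes of lung over mature marrow between -2.37 and -1.04.

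Several abundant genes outside the lists were higher in lung. Ctla2a, a cathepsin inhibitor, had 948, 845 and 1099 CPM in lung, against 14.9, 41.6 and 50.1 CPM in mature marrow (4.64 ± 0.30, adjusted p = 6.97e-24). Hilpda, which blocks lipolysis on lipid droplets, had 1135, 802 and 501 CPM in lung, against 14.9, 27.8 and 40.1 CPM in mature marrow (4.71 ± 0.36, adjusted p = 2.45e-20), and replicate 3 was the lowest lung library. Odc1, the first enzyme of polyamine synthesis, had 749, 578 and 686 CPM in lung, against 89.4, 41.6 and 40.1 CPM in mature marrow (3.59 ± 0.31, adjusted p = 3.3e-17). The tissues did not overlap for these 3 genes. Hes1, a Notch target and repressor, had 441, 599 and 668 CPM in lung, against 74.5, 27.8 and 30.1 CPM in mature marrow (3.74 ± 0.38, adjusted p = 4.65e-14). Neb, the gene of the muscle protein nebulin, had 0 counts in lung and 119, 208 and 150.4 CPM in mature marrow, at least 15.8-fold lower in lung against a floor of 3 counts over the lung group (adjusted p = 4.03e-09).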
